A study of Mus musculus with 8 samples.

Results

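The comparison described here sets mice that combine a maternal deletion of the span between Snrpn and Ube3a with a paternal deletion of the Snrpn promoter against wild type. Its members were chosen by their labels, and they are 4 of the 8 samples of the series. All are total RNA of cerebral cortex from C57BL/6 mice at postnatal day 0, read on a custom array that tiles both strands of 1810 kb of chromosome 7 (chr7:65890585-67700765, mm9). Random-hexamer first-strand cDNA was labelled, so RNA from the plus and minus strands was measured apart. The 2 wild types, WT1 and WT2, carry neither deletion, and per the series' design text they are littermates of the single-deletion mice, not of the mice described here.

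The 2 double-deletion samples share the maternal deletion (del s-u). They differ in the paternal promoter deletion, whose alleles are designated 0.9 and 4.8. The title of the first sample names the 0.9 allele and its genotype field names 4.8, while the second sample has these the other way round. The samples are therefore called double deletion 1 and double deletion 2, and no value is assigned to either allele. Neither allele has a replicate, so the SD of the pair holds the difference between alleles together with the difference between samples. The labels do not say whether a sample is 1 animal or a pool, so the spread behind each p-value may be technical.

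Ube3a encodes an E3 ubiquitin ligase, and in neurons it is transcribed mainly from the maternal chromosome. On the paternal chromosome a long minus-strand transcript starts near Snrpn, runs through the small nucleolar RNA clusters and reaches Ube3a from its 3′ side, where it is called Ube3a-ATS. Loss of maternal UBE3A causes Angelman syndrome, and the paternal gene is held silent in neurons in the presence of this antisense RNA. With the maternal copy of the span gone and the paternal promoter gone, the comparison asks how much of the antisense RNA is left and what the plus strand of Ube3a does. In RefSeq the order along the chromosome is Atp10a, Ube3a, Ipw, Snord64, Snrpn with Snurf, and then Ndn, Magel2, Mkrn3 and Peg12. The deposited files name no gene inside the tiled span, so the ends of Ube3a were set at fixed positions. These follow an earlier analysis of the data and were not checked against an annotation. The gene was split at the deletion border inside it.

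The 250 bases before the RefSeq start of Ube3a and of Snrpn are shown because the paternal lesion removes a promoter of the second and the readout is the first. They are from build GRCm38.p6, which differs from the array's build, and the extent of the 0.9 and 4.8 deletions was not analysed here. Each CG is in capitals.
Ube3a promoter, chr7:59228500-59228749, plus strand: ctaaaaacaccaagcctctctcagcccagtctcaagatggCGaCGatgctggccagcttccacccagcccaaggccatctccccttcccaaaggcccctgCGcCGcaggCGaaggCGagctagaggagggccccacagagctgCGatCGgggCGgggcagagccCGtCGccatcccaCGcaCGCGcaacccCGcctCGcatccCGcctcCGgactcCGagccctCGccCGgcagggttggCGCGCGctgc
Snrpn promoter, chr7:60005200-60005449, minus strand: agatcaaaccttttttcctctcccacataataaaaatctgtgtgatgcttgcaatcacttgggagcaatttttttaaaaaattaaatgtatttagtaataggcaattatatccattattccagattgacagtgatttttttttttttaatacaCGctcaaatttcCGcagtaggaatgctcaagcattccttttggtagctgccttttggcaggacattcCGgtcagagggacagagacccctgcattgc
The letters CG were searched on the printed strand, and they read the same on the other strand. The Ube3a window holds 24 CG and is 70% G or C, and 12% of all 32851 RefSeq windows of this length hold at least as many. The Snrpn window, at the start it shares with Snurf, holds 3 CG and is 36.8% G or C, and 71% of windows hold at least as many. RefSeq lists 4 start windows for Snrpn, and 92.1% of all windows hold at least 1 CG.

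The median red intensity was 134.5 and 125 on the wild-type arrays and 132 and 153 on the double-deletion arrays, over a local background of 37 to 38. The share of spots well above background ran from 81.1% to 86.6%. Levels below are mean log2 intensities of the probes of a region, with the 75th percentile of the 3338 probes outside the locus set to 0 on each array. A change is the mean of the double deletions less the mean of the wild types on that scale. It was tested with limma over all 24 combinations of region and strand, and a region was called at an adjusted p below 0.05. On this test 4 regions were lower (16.7%) and 3 were higher (12.5%). All 4 lower regions are on the minus strand and all 3 higher regions are on the plus strand.

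The borders of the deletion were read from the steps of the plus strand. In both double deletions the steps fell between the same neighbouring probes, at 66526853 and 66526901 inside Ube3a and at 67147632 and 67147710 at the Snrpn end. These are also the steps of the mean of the 2 single-deletion arrays of the series. At the lower border the plus-strand change went from 1.1 before the step to -0.28 after it in double deletion 1, and from 1.16 to -0.43 in double deletion 2. At the upper border it went from -0.11 to 1.86 and from -0.07 to 1.53. The deleted span therefore runs over 621 kb and takes the 3′ part of Ube3a with it. Inside it only the paternal chromosome has template in the double deletions, whereas wild type has both.

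**Figure D1:**
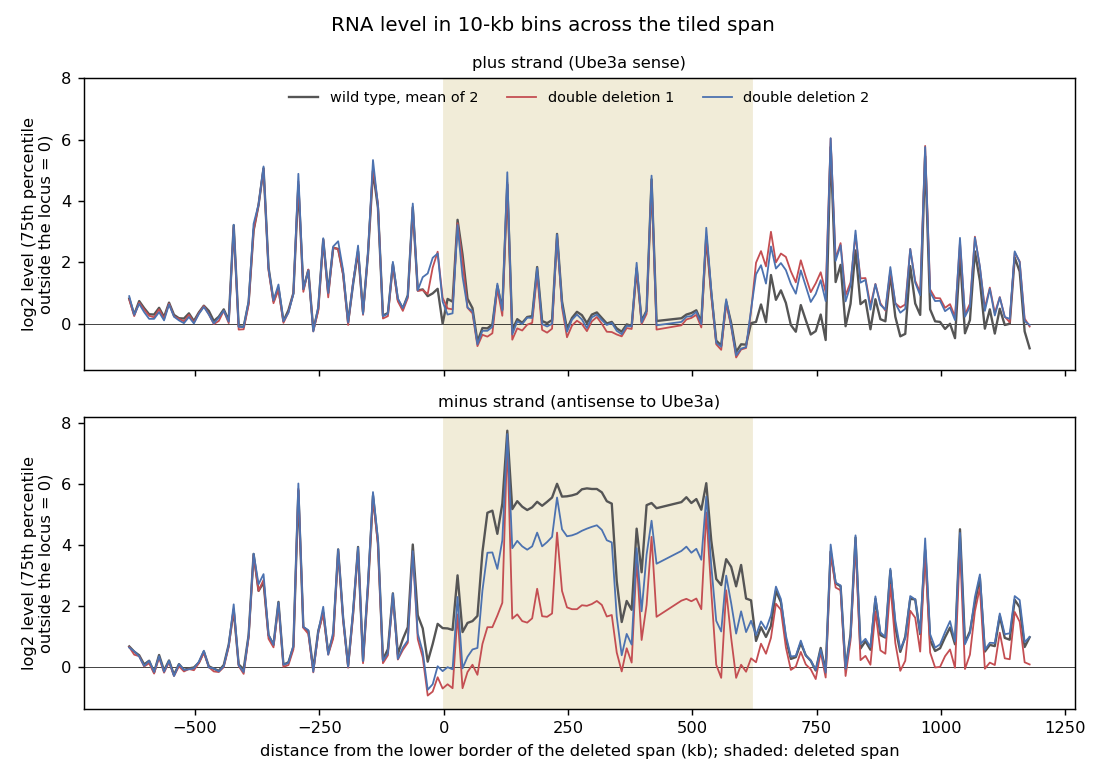
Mean log2 level (y axis) of 10-kb bins against the distance in kb from the lower border of the deleted span (x axis, shaded span deleted), for the plus strand above and the minus strand below. The grey line is the mean of 2 wild types and the coloured lines are the 2 double deletions. The minus strand of the shaded span lay lower in both double deletions and lowest in double deletion 1, and the plus strand lay higher beyond the upper border.

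The antisense strand of Ube3a was lower in both double deletions. Over the 5′ part of the gene (chr7:66480001-66526900), which the deletion leaves intact, the minus-strand level was 0.91 and 0.99 in the wild types and -0.49 and -0.2 in double deletions 1 and 2. Both double deletions lay below both wild types, and the level fell by 1.29 (SE 0.13, limma adjusted p = 0.0183). Over the 3′ part (chr7:66526901-66570000) it was 1.48 and 1.53 in the wild types and -0.26 and 0.34 in the double deletions, a change of -1.46 (SE 0.24, limma adjusted p = 0.0384). The call of the 3′ part was lost with plain background subtraction (limma adjusted p = 0.0614) and with the scanner's processed signal (limma adjusted p = 0.0532). Without either wild type no region passed the threshold, and the changes of these 2 regions then lay between -1.26 and -1.48.

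The log2 scale carries an offset against noise, which narrows the change of dim probes. On the unscaled intensities, the median minus-strand probe of the Ube3a 5′ part stood 194 and 209 units above background in the wild types, 21 in double deletion 1 and 42 in double deletion 2. These are 10.4% and 20.8% of the wild-type mean. In the 3′ part the medians were 339 and 356 against 28 and 91, or 8.06% and 26.2%. Arrays were not scaled for these shares. For reference, the outer lower flank of the tiled span stood at 135% and 120% of wild type on its minus strand.

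The sense strand of Ube3a changed in opposite directions on the 2 sides of the border. In the 5′ part the plus-strand level was 0.91 and 0.85 in the wild types and 1.52 and 1.79 in the double deletions, a rise of 0.78 (SE 0.12, limma adjusted p = 0.0384). Both double deletions lay above both wild types, and the unscaled median intensity above background was 2.35 and 2.94 times the wild-type mean. For reference, the plus strand of the 100 kb before Ube3a, which changed by 0.01, stood at 1.27 and 1.25 times wild type. The call of the 5′ part too was lost with background subtraction (limma adjusted p = 0.0587) and with the processed signal (limma adjusted p = 0.0513). In the 3′ part, of which these mice keep only the paternal copy, the plus-strand level was 1.57 and 1.53 in the wild types and 1.32 and 1.09 in the double deletions. Both double deletions lay below both wild types, but the change of -0.35 (SE 0.11, limma adjusted p = 0.0922) did not pass the threshold, and it was 0.12 when all probes set the scale. Such separation of the groups was common and says little alone. It held downward in 165 of 356 bins of 10 kb, and in the plus strand of the outer lower flank, which changed by -0.07.

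The series also holds 1 sample with the maternal deletion and an intact paternal promoter. Its plus-strand level in the 3′ part was 0.7, below both double deletions and both wild types, and the paternal deletion alone stood at 1.4. The single deletions have 1 sample each and share the wild-type controls, so the values are given side by side and the difference was not tested. On the minus strand of the same stretch the maternal deletion stood at 1.27 and the paternal deletion at -0.36, the latter close to the -0.26 of double deletion 1. On the minus strand of the 5′ part they stood at 0.64 and 0.39, both above the -0.49 and -0.2 of the double deletions. On the plus strand of the 5′ part both single deletions lay above both wild types, at 1.46 in the maternal and 1.25 in the paternal deletion. The higher sense level there was thus not limited to the double deletions.

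Windows of 5 kb show where along Ube3a the plus strand moved. The 4 windows that reach from 66505001 up to 66525000, just before the border, changed by 1.03 to 1.3 and passed the threshold (limma adjusted p = 0.0252 for each over 708 windows). In the same windows the maternal deletion alone changed by 0.87 to 1.2 and the paternal deletion alone by 0.54 to 0.83. In the 3 windows that start at 66485001, 66490001 and 66495001, nearer the start of the gene, double deletion 1 differed from the wild-type mean by 0 to 0.08 and double deletion 2 by 0.72 to 0.76. The first of these windows read 1.49 and 1.37 in the wild types, 1.43 in double deletion 1 and 2.16 in double deletion 2. The gain before the border was thus shared by both double deletions and, at a smaller size, by the single deletions. Of the double deletions, only double deletion 2 had the gain further towards the gene's start. None of those 3 windows passed the pooled test (limma adjusted p from 0.421 to 0.496).

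Near the 3′ end of Ube3a the 2 double deletions and the maternal deletion lay apart on the plus strand. The window was singled out after its values were seen, and it is described by position because the files do not annotate exons. In the window from 66560001 to 66565000 the wild types read 2.93 and 2.99. Double deletion 1 read 2.85, double deletion 2 read 2.12, the maternal deletion 1.19 and the paternal deletion 2.85. Double deletion 1 thus lay next to the wild types and double deletion 2 between them and the maternal deletion. The pooled change of -0.47 (SE 0.3, limma adjusted p = 0.408) did not pass the threshold.

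**Figure D2:**
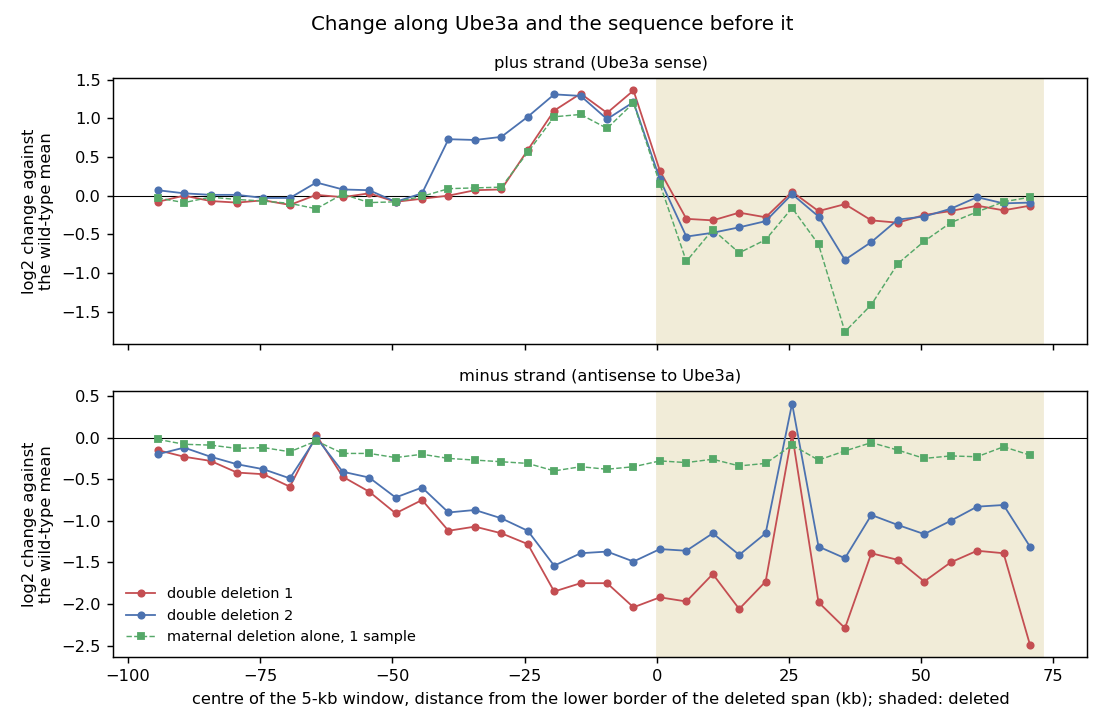
Log2 change against the wild-type mean (y axis) in 5-kb windows by distance in kb from the lower border (x axis, shaded side deleted), plus strand above and minus strand below. Circles are the 2 double deletions and squares the single maternal-deletion sample. On the plus strand the gain ended at the border, and on the minus strand the decrease ran across it and became smaller with distance before the gene.

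The minus-strand decrease did not stop at 66480001, the position used as the 5′ end of Ube3a. In 5-kb windows the change was -1.76 in the window from 66520001 next to the border, -0.97 in that from 66490001, -0.82 in that from 66475001, -0.41 in that from 66450001 and -0.17 in that from 66430001. Of these, all but the last passed the threshold (limma adjusted p from 0.0252 to 0.0339), and the last had an adjusted p of 0.155. Over the whole 100 kb before Ube3a the level was 1.86 and 1.81 in the wild types and 1.57 and 1.66 in the double deletions. That change of -0.22 (SE 0.07, limma adjusted p = 0.0922) missed the threshold, and it was 0.24 when all probes set the scale. The plus strand of the same 100 kb differed by 0.01 (SE 0.06). A window bright on both strands, from 66460001, interrupts the decrease: its minus strand read 5.52 and 5.31 in the wild types and 5.45 and 5.42 in the double deletions. A like window lies inside Ube3a, from 66550001, with 5.09 and 5.07 against 5.12 and 5.49.

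The balance of the strands puts both changes on 1 scale. Each minus-strand probe has a plus-strand partner at the same position on the same array, and the difference within a pair does not depend on how the array was scaled. In the Ube3a 5′ part the minus strand less the plus strand was 0 and 0.14 in the wild types and -2.01 and -1.99 in the double deletions, over 832 pairs. The double deletions thus read nearly the same, and they differed from the wild types by -2.07 (SE 0.08, limma adjusted p = 0.00245 over 12 regions). In this region the lower antisense and higher sense levels of double deletion 1 (changes of -1.44 and 0.64) and of double deletion 2 (-1.15 and 0.91) came to nearly the same difference. This call was lost without WT2 (limma adjusted p = 0.0505, change -2). In the 3′ part the strand difference was -0.1 and 0 in the wild types and -1.58 and -0.75 in the double deletions (change -1.11, SE 0.36, limma adjusted p = 0.0877), and no region other than the 5′ part passed the threshold.

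**Figure D3:**
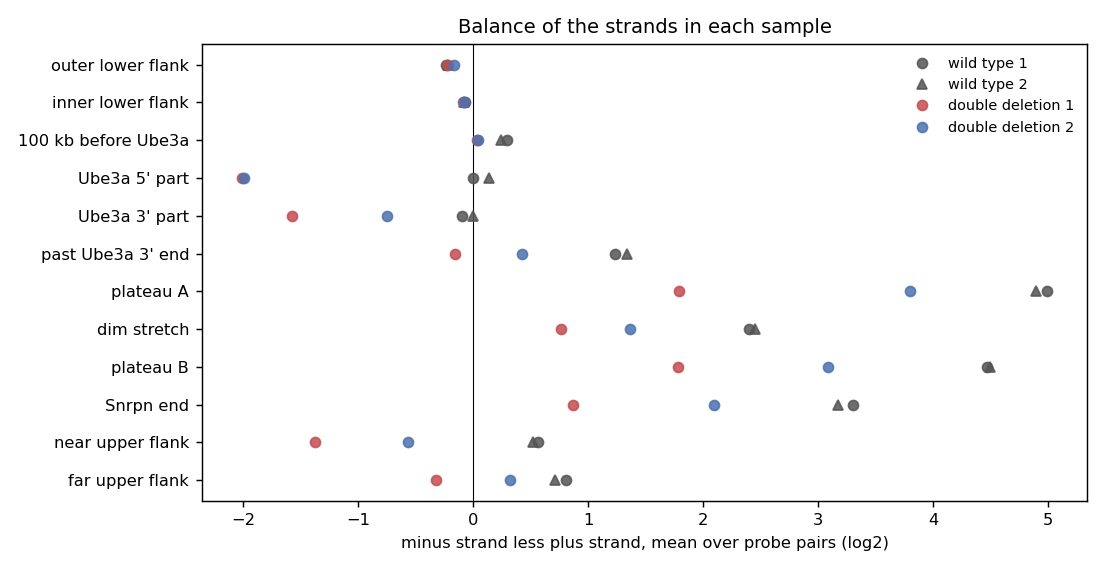
Minus strand less plus strand (x axis, log2, mean over probe pairs) in each of 12 regions (y axis) and each of the 4 samples. Grey marks are the wild types and coloured circles the double deletions. In the Ube3a 5′ part the 2 double deletions coincide near -2, and in the regions of the deleted span they lie apart.

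Past the 3′ end of Ube3a the minus strand carries the host transcript of the small nucleolar RNA clusters. The stretch of 30 kb from 66570001 read 1.53 and 1.54 in the wild types and -0.13 and 0.5 in the double deletions (change -1.35, SE 0.26, limma adjusted p = 0.0427). A stretch from 66870001 to 66930000 that is dim in wild type (the dim stretch) read 2.57 and 2.62 against 0.81 and 1.5 (change -1.44, SE 0.28, limma adjusted p = 0.0427). Both double deletions lay below both wild types in each, and both calls were lost with background subtraction and with the processed signal.

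The stretches that are brightest in wild type, plateaus A and B, and the Snrpn end had the largest mean differences from wild type on this offset log2 scale. With background subtraction the order differed: plateau A changed by -2.51, plateau B by -2.35 and the Snrpn end by -2.62. The Ube3a 5′ part then changed by -2.75 and the 3′ part by -2.62. Plateau A (chr7:66600001-66870000) read 5.54 and 5.34 in the wild types, 2.06 in double deletion 1 and 4.25 in double deletion 2. Plateau B (chr7:66930001-67060000) read 5.44 and 5.41 against 2.59 and 4.01, and the Snrpn end of the span (chr7:67060001-67147709) read 3 and 2.88 against 0.45 and 1.74. The pooled changes were -2.28 (SE 0.87), -2.12 (SE 0.57) and -1.84 (SE 0.51), with limma adjusted p of 0.137, 0.0903 and 0.0904. None passed the threshold with the samples as 1 group. A fit with the samples as separate groups takes its spread from the 2 wild types alone and sets the gap between the double deletions aside, so it was not used for a call here.

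As unscaled median intensity above background, plateau A was at 7.1% of wild type in double deletion 1 and at 43.1% in double deletion 2. Plateau B was at 9.4% and 30.8%, and the Snrpn end at 6.88% and 36%. The order of the samples was the same in every minus-strand bin of the deleted span: double deletion 1 was the lower one in all 27 bins of plateau A, all 9 of plateau B and all 9 of the Snrpn end. This order was not specific to the span, as double deletion 1 was lower in 172 of all 178 minus-strand bins. On the plus strand of plateau A, plateau B and the Snrpn end it was also lower in all 27, 9 and 9 bins. The log2 gap between the samples in plateau A was 2.18 on the minus strand and 0.18 on the plus strand. In the paternal deletion alone, which removes the paternal template, plateau A read 0.36, and in the maternal deletion alone it read 5.28. In plateau A the remaining signal of both double deletions thus lay above the level measured without a paternal template. On the minus strand of the Ube3a 5′ part, outside the deletion, the order was reversed, at -0.49 and -0.2 against 0.39 in the paternal deletion.

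**Figure D4:**
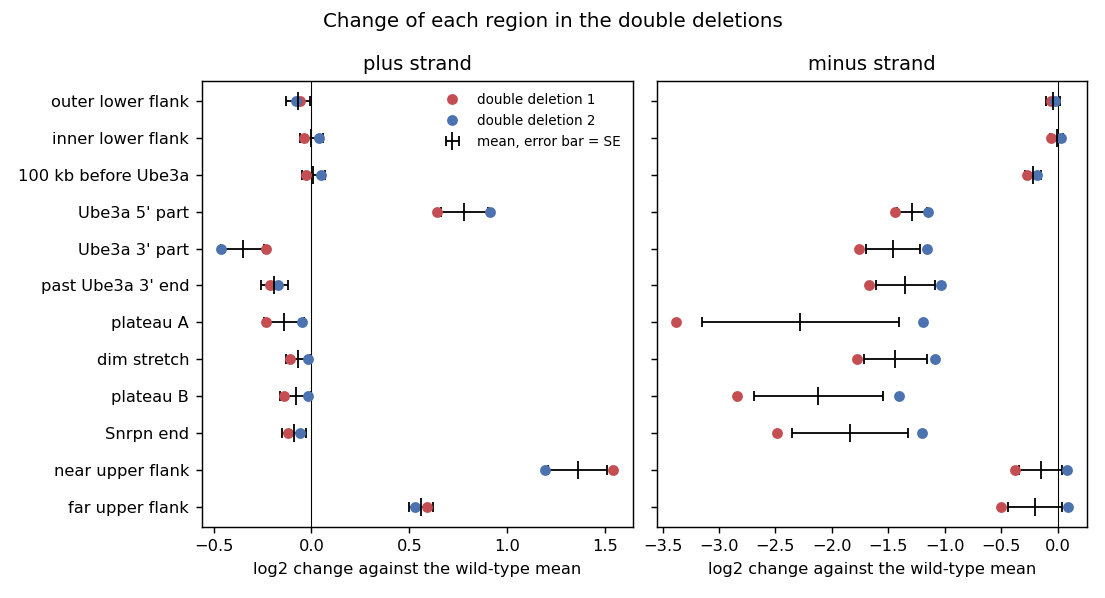
Log2 change against the wild-type mean (x axis) of 12 regions (y axis), plus strand on the left and minus strand on the right. Circles are the 2 double deletions, and the bar is their mean with its SE from the limma fit. On the minus strand double deletion 1 lies left of double deletion 2 in each region, and on the plus strand the 2 upper flanks and the Ube3a 5′ part are the regions past the threshold.

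Across the tiled span, 13 of 356 bins of 10 kb were lower (3.65%) and 55 were higher (15.4%) in limma at an adjusted p below 0.05. All 13 lower bins were on the minus strand: 3 of the 10 before Ube3a, all 5 of the Ube3a 5′ part, 2 of 4 of the 3′ part, 1 of 3 past its end and 2 of 6 in the dim stretch. The 55 higher bins were all on the plus strand, and 51 of them lay in the upper flanks. Quantile normalization gave 31 lower and 52 higher, and a scale on bright outside probes gave 20 and 48. With the samples as separate groups, where the spread is that of the wild types alone, there were 88 lower (24.7%) and 66 higher (18.5%). A fit without 1 double deletion takes its spread from the wild types alone, and a fit without 1 wild type takes it from the double deletions alone. Counts of bins from these fits are therefore not given, apart from the loss of the bin calls in both directions without either wild type. In 165 bins (46.3%) both double deletions lay below both wild types, and in 72 (20.2%) both lay above.

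Among the called bins, the largest decrease was at 66520001 to 66530000 on the minus strand, the bin that holds the border inside Ube3a. It read 1.25 and 1.3 in the wild types and -0.71 and -0.14 in the double deletions (change -1.69, SE 0.23, limma adjusted p = 0.0341). The next were those from 66540001 (-1.6), 66510001 (-1.57), 66530001 (-1.55) and 66500001 (-1.44), all over Ube3a. Those from 66570001 and 66880001 both changed by -1.36, that from 66890001 by -1.32, that from 66490001 by -1.02 and that from 66480001 by -0.85. The paternal deletion alone moved the bin from 66540001 by -2 and the bin from 66500001, outside the deletion, by -0.72.

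Some minus-strand bins of the deleted span stayed bright in the double deletions. The brightest left, from 66650001 to 66660000, read 7.78 and 7.7 in the wild types and 7.44 and 7.63 in the double deletions, a change of -0.21 (SE 0.09, limma adjusted p = 0.267). It read 7.36 in the paternal deletion, which lacks the paternal copy of the span and keeps the maternal copy. Its plus strand was also bright, at 4.53 and 4.55 in the wild types and 4.61 and 4.94 in the double deletions. Of the 91 minus-strand probes of this bin, 8 and 5 saturated in the wild types and 19 and 17 in the double deletions. The other 4 of the 5 brightest bins left, from 67050001, 66750001, 66940001 and 66910001, changed by -0.7, -1.03, -0.84 and -0.82, and their adjusted p was 0.0669 or above. Their paternal-deletion levels were 4.8, 3.6, 3.9 and 3.42. Whether probes in these bins read RNA from elsewhere was not tested.

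At the Snrpn end the minus-strand signal stepped further out than the plus-strand signal. The minus-strand step lay 1314 bases beyond the border in double deletion 1, where the change went from -2.22 to -0.69, and 2644 bases beyond it in double deletion 2, where it went from -0.9 to 0.22. In the paternal deletion alone, by contrast, the minus strand was low up to the border, at -1.21 in the 1-kb window from 67146001, and it read 2.12 in the window from 67148001. That window, just outside the deletion, read 2.63 and 2.47 in the wild types, 0.05 in double deletion 1 and 1.93 in double deletion 2. The maternal deletion read 2.37 there, so the low value of double deletion 1 was not seen in either single deletion. In the next window, from 67149001, the double deletions read 1.85 and 2.18 against 2.92 and 2.83 in the wild types. These windows were chosen after their values were seen and carry no test.

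**Figure D5:**
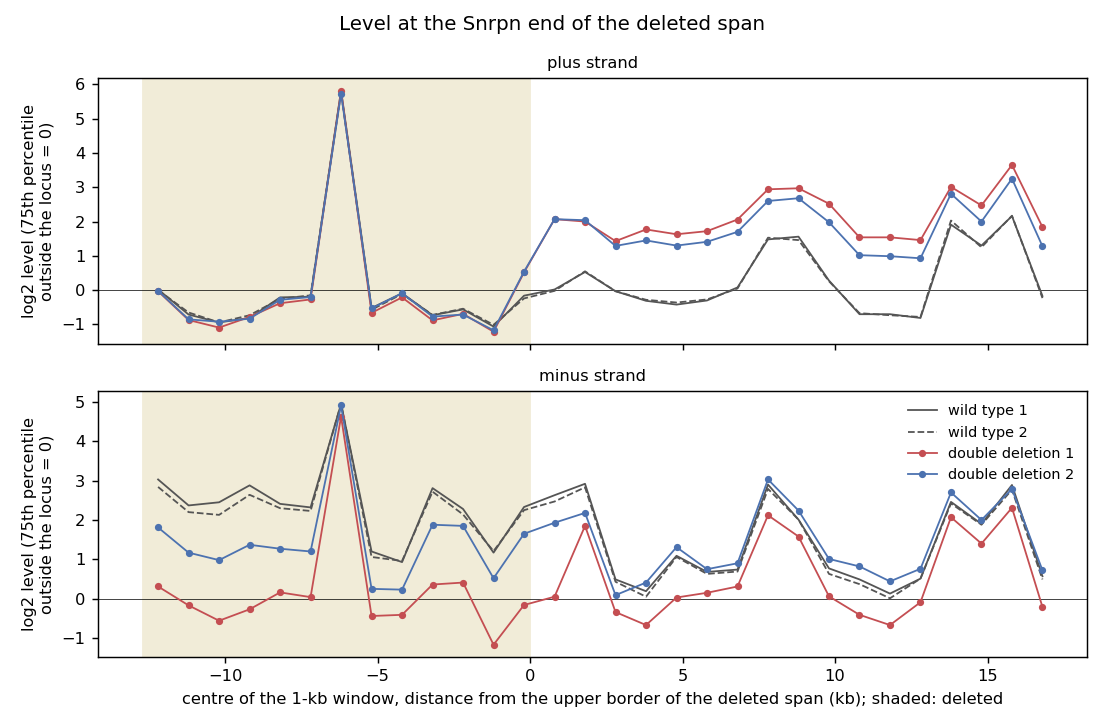
Mean log2 level (y axis) in 1-kb windows by distance in kb from the upper border (x axis, shaded side deleted), plus strand above and minus strand below. Grey lines are the wild types and coloured lines the double deletions. The plus strand of both double deletions rises at the border, and the minus strand of double deletion 1 stays near 0 for the first kb beyond it.

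The largest rise of the plus strand was beyond the upper border, outside the deleted span. In the near upper flank (chr7:67147710-67300000) the plus-strand level was 0.25 and 0.26 in the wild types and 1.8 and 1.44 in the double deletions, a rise of 1.36 (SE 0.15, limma adjusted p = 0.0183). In the far upper flank (chr7:67300001-67700765) it was 0.68 and 0.67 against 1.26 and 1.21, a rise of 0.56 (SE 0.06, limma adjusted p = 0.0183). The plus strand of the near flank is at background for many probes in wild type, where 63% and 62.5% were well above background against 99.8% and 99.7% in the double deletions. Its median probe stood 18 and 16 units above background in the wild types and 441 and 265 in the double deletions. In the far flank these medians were 31 and 28 against 166 and 128. No ratio is given, because the wild-type medians are close to background.

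The rise was larger in the first 150 kb than in any later step. In steps of 50 kb it was 1.49, 1.29 and 1.3 over the first 150 kb, then 0.74, 0.66, 0.45, 0.7, 0.65, 0.55 and 0.55, and 0.25 in the last full step, which begins 500 kb from the border. Of the 10-kb bins, 14 of 15 in the near flank and 37 of 41 in the far flank were called. The largest changes were in the bins from 67150001 (1.75), 67220001 (1.54), 67170001 (1.54), 67160001 (1.51), 67230001 (1.43) and 67290001 (1.41). The bin from 67150001 read 0.06 in both wild types, 1.99 and 1.61 in the double deletions, 1.66 in the maternal deletion and 1.04 in the paternal deletion. The bins from 67270001 (1.39), 67240001 (1.3), 67210001 (1.28) and 67250001 (1.26) complete the 10 largest. The single deletions, which share the border, also had higher levels in the near flank than wild type, at 1.4 and 0.94.

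The minus strand of the upper flanks, beyond the Snrpn end of the deleted span, separated the 2 double deletions. The Snrpn start itself was not placed on the array's build. In the far flank it read 1.49 and 1.39 in the wild types, 0.94 in double deletion 1 and 1.53 in double deletion 2. In steps of 50 kb double deletion 1 differed from the wild-type mean by -0.16 to -0.72 over the first 550 kb, and double deletion 2 by -0.02 to 0.18. The pooled change of -0.2 (SE 0.24, limma adjusted p = 0.57) did not pass the threshold, and it was 0.27 when all probes set the scale. On the plus strand of the same flank the samples read 1.26 and 1.21.

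On the other side of the locus, little moved. Before Ube3a the inner lower flank (chr7:66100001-66380000) changed by -0.01 on the minus strand and by 0 on the plus strand (SE 0.06 for each), and the outer lower flank on the Atp10a side by -0.04 and -0.07 (SE 0.06 for each). None of the 98 bins of these flanks was called. The plus strand inside the deleted span past Ube3a changed by -0.19 to -0.07 over its 5 regions, none past the threshold. When all probes set the scale, these small negative values and those of the lower flanks turned positive, at 0.28 to 0.47, still short of the threshold. Single probes were called lower in 1317 of 53799 cases (2.45%) and higher in 2905 (5.4%). Outside the locus 4 of 3336 were lower and 8 higher, against 57.7% lower among minus-strand probes of the Ube3a 5′ part and 47% higher among plus-strand probes of the near upper flank.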

How the data were processed

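Per the labels' protocols, Cy5 first-strand cDNA of total RNA was hybridized to 1 array per sample, and all arrays share 1 slide and 1 scan. The deposited scanner files hold red median intensity per spot on a linear scale, not normalized between arrays. Per the file headers they come from Agilent Feature Extraction 10.7.3.1 on build mm9, and the submitters' processing notes name version 10.9. The deposited series matrix holds the same intensity times 1 factor per array for 18408 features of the locus, with no probe outside it. It served as an alternative on its own scale.

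Intensities were corrected with normexp (offset 50) in limma 3.58.1 under R 4.3.3. Control and outlier spots were left out, spots were averaged by probe, and log2 values were set against the array's 75th percentile over probes outside the locus. These log2 values were computed here from the deposited intensities. Probe means over regions, bins of 10 kb (at least 3 probes of a strand) and strand pairs were fitted with lmFit and eBayes, two-sided, with Benjamini-Hochberg adjustment. The double deletions formed 1 group, and separate groups were an alternative. The steps were tested on simulated data.

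The samples, regions and lists were chosen with earlier results of these data known. The text names both strands of Ube3a, every region, the 10 called bins with the largest change in each direction and the 5 brightest minus-strand bins left. The files name no genes in the locus, so lists of imprinted genes, neighbours and cell type markers were not applied, and the tissue was not checked by markers. PolyA samples were not used here.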

Additional observations from a re-analysis of the deposited data

How the results depend on the processing

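No paired analysis was possible because the labels pair no double deletion with a wild type. Per the series' design text the wild types are not littermates of the double deletions, so litter and genotype cannot be told apart here. With 2 arrays in a group, the number of arrays limits the precision, and dim plus-strand probes of the flanks are close to background in wild type. The count of lower bins (13) became 7 with background subtraction, 7 with the processed signal, 20 on the scale of bright outside probes, 31 with quantile normalization, 88 with the double deletions as separate groups and 21 in bins of 5 kb. On the scale of all probes it was 0 (54 at an unadjusted p below 0.05 in limma), and the count of higher bins (55) was 0 as well (60 unadjusted). That scale moved the median change of all probes from -0.12 to 0.35. In bins of 5 kb the higher count was 91. Leaving out 1 sample at a time, the lower count ranged from 0 to 136 and the higher count from 0 to 77.

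With background subtraction the change was -2.62 for the minus strand of the Ube3a 3′ part and 0.98 for the sense strand of the 5′ part, and with the processed signal it was -1.45 and 0.56, and none of these 4 passed the threshold. Plateau A passed it at -1.82 on the scale of all probes, at -1.79 with quantile normalization and at -2.28 with separate groups. The plus strand of the Ube3a 3′ part passed it at -0.35 with separate groups. That fit has 1 sample in each double-deletion arm and takes its spread from the wild types alone, so its passes support no call. Leaving out 1 sample at a time, the minus strand ranged from -1.44 to -1.15 in the Ube3a 5′ part, from -1.76 to -1.16 in the 3′ part and from -3.38 to -1.19 in plateau A. The plus strand ranged from 0.64 to 0.91 in the 5′ part, from -0.46 to -0.23 in the 3′ part and from 1.19 to 1.54 in the near upper flank, and the strand difference of the 5′ part from -2.14 to -2. Without either wild type the regional calls were lost in limma (adjusted p of 0.161 or above), apart from the strand difference without WT1. Some results passed the threshold under every alternative that kept both wild types and both double deletions as 1 group. They were the antisense strand of the Ube3a 5′ part, the plus strand of both upper flanks and, where it was run, the strand difference of the 5′ part. The alternative that added the single deletions to the fit repeated the main values, so it was not a separate check. Fits without 1 double deletion take their spread from the wild types alone and support no call either. The cause of the shifts between settings was not tested.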
